A study of Mus musculus with 19 samples.

Results

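Gene expression in Tet3-/- mouse embryonic stem cells (mESC) was set against that in wild-type XX mESC, and 7 of the 19 libraries of the series entered the comparison. The members were chosen by their labels: 4 libraries of Tet3-/- XX mESC, numbered mutant #1 to #4, and 3 libraries of wild-type XX mESC, numbered XX 1 to 3. All 7 came from the LF2 line, so both groups shared the line and the sex chromosomes and differed by label in the Tet3 genotype alone. The cells were held in N2B27 with a GSK3 inhibitor, a MEK1/2 inhibitor and LIF, per the labels' protocols. Each library was made from 200 ng of total RNA with a RIN score of at least 9, after depletion of ribosomal RNA. The labels do not say whether the 4 mutant libraries came from 1 clone or several, nor whether libraries of 1 group were separate cultures, so every p-value measures only the spread between these libraries. As a second set of values, 3 XX and 3 Tet3-/- libraries of epiblast-like cells (EpiLC) are used, which had been kept in FGF5 and Activin A, with no LIF, for 5 days. The EpiLC mutants are numbered #1, #3 and #4, as mESC mutants are. The 2 states may therefore share mutant cells of 1 origin, and EpiLC is not an independent repeat of the genotype.

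TET3 is 1 of the TET dioxygenases, which oxidise 5-methylcytosine in DNA and thereby take part in the removal of DNA methylation. In mouse development TET3 is best known for the oxidation of the paternal genome in the zygote. The inhibitors and LIF hold mESC in the naive pluripotent state, in which DNA methylation is low and transcription factors of the KLF family, ESRRB and NANOG are active.

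The values are TPM (transcripts per 1000000) summed per gene and scaled between libraries by the median of ratios, and a scaled TPM is a level per transcript length. Of 54119 genes, 12296 reached a TPM of 1 in 3 or more of the 7 libraries and were tested with limma on log2(scaled TPM + 1). Every log2 difference is mutant minus XX on that scale, and the added 1 makes differences of weakly expressed genes look smaller than they are. TPM does not keep the number of reads. Depth is therefore unknown, and errors come from the spread among libraries.

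Tet3 itself (chromosome 6) was too low to be tested. Its scaled TPM was 0.804, 0.598 and 1.11 in XX 1 to 3 and 0.581, 0.6, 0.471 and 0.77 in mutants #1 to #4, and the groups overlapped. Of its annotated transcripts, the protein-coding Tet3-202 had deposited TPM values of 0.258, 0.482 and 0.486 in XX and 0.245, 0.353, 0.305 and 0.443 in the mutants. The part of the gene that was deleted is not given in the sources used here, and RNA may still be made from what is left, so these levels do not check the genotype labels.

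The libraries of each genotype spread widely. The first principal component held 53.1% of the variance and placed XX 1, XX 3, #1 and #4 at scores of -31.16, -30.45, -15.05 and -13.64, against 41.52, 23.8 and 24.98 for XX 2, #2 and #3. It did not follow genotype, and the labels name nothing that would give this division. The second component held 20.3% and had the 3 XX libraries at -19.18, -19.7 and -15.65 and the mutants at 17.95, 11.98, 1.66 and 22.93, so that the genotypes did not overlap. The genes with the most extreme loadings on the first component were small non-coding RNAs and unnamed models, with Terc, the RNA template of telomerase, on the side of XX 1 and Rny3, a Y RNA, on the side of XX 2. Rn7s1, the RNA of the signal recognition particle, took from 28.5% to 41.6% of TPM per library, and protein-coding genes took from 22.8% in XX 1 to 43.6% in XX 2. Of the fibroblast markers, 9 of 10 were below the test's limit and their summed scaled TPM was 1.94 to 2.98 in XX and 1.95 to 3.38 in the mutants, while 14 naive pluripotency genes summed to 752 to 775 and 656 to 728. Trophoblast markers, 8 of 10 below the limit, summed to 19.2 to 20 in XX and 16.5 to 19.2 in the mutants. Primitive endoderm markers, 10 of 15 below the limit, summed to 13.1 to 33.6 in XX and 14.8 to 22.6 in the mutants. Among them the endoderm factor Gata6 stood at 3.22, 0.4 and 3.45 in XX and at 1.16, 0.203, 0.335 and 1.15 in the mutants. Dab2, an endocytic adaptor of that lineage, stood at 4.05, 0.453 and 5.03 and at 2.05, 0.361, 0.402 and 1.99. Both were low in XX 2, #2 and #3, as the first component divides the libraries, and their part in the results was not tested. The other tested markers of that lineage, Lama1, Lamb1 and Col4a1, had log2 differences of -0.48, 0.32 and 0.64. Col4a1, at 0.389 to 0.81 in XX and 0.954 to 2.0 in the mutants, had no overlap between the groups. Its XX values lay under 1, so it was tested because of its mutant levels.

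**Figure D1:**
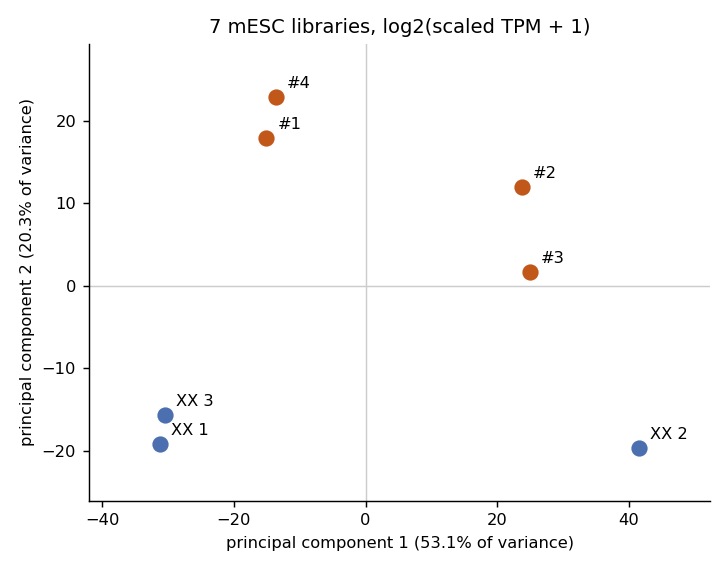
Scores of the 7 mESC libraries (blue, XX; orange, Tet3-/-) on the first principal component (x axis, 53.1% of variance) and the second (y axis, 20.3%). XX 2, #2 and #3 lie on the right, and the genotypes separate along the y axis.

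Only 5 of the 12296 genes passed the test at an adjusted p under 0.05, which is 0.0407% of genes tested, and all 5 were lower in the mutant. They were Klf5, a naive pluripotency transcription factor, Kdelr3, a receptor that returns proteins to the endoplasmic reticulum, Smyd2, a lysine methyltransferase, Cr1l, a regulator of complement, and n-R5s112, a 5S ribosomal RNA gene. The last of these met the limit on low levels through the XX libraries alone, so it had to differ between the groups once it was tested, and 4 calls do not carry that limit. No gene passed as higher by limma, while 806 higher genes (6.55%) and 751 lower genes (6.11%) had an unadjusted p under 0.05. In 829 genes (6.74%) every mutant library was above every XX library, and in 798 genes (6.49%) every mutant library was below. The count of calls rested on single libraries: it was 0 without XX 1, XX 3 or #3, 3 without #1, 5 without #2 and 1 without #4. Without XX 2, which had the first component's highest score, limma called 775 genes (6.3%), 325 higher and 450 lower, among them all 5. On one side of the first component alone, XX 1 and 3 against #1 and #4, it called 1387 genes, but those libraries were taken for being alike, which makes their spread small by construction, and on the other side it called 0. On TPM as deposited, where the median log2 difference of all genes was 0.217 in place of -0.005, it called 0 too.

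Klf5 (ENSMUSG00000005148, chromosome 14, 99298691 to 99315036, GRCm38) stood at a scaled TPM of 32, 27.8 and 30.5 in XX 1 to 3. It stood at 8.78, 10.7, 10.4 and 9.48 in mutants #1 to #4. All mutants lay far below the lowest XX library, and the spread within each genotype was small. The means were 30.1 ± 2.1 (SD, n = 3) and 9.86 ± 0.902 (SD, n = 4), a ratio of 0.328, and the log2 difference was -1.52 with a standard error of 0.11 (limma adjusted p 0.0123). In EpiLC, from other libraries, where 441 of 12114 genes (3.64%) were called, the log2 difference was -1.32, which did not pass (limma adjusted p 0.136). There Klf5 stood at 21.8, 22.7 and 21.2 in XX and at 4.84, 17.2 and 6.22 in #1, #3 and #4, without overlap. EpiLC #3 also stood apart in the mesendoderm gene T, at 64.8 against 1.23 in #1 and 1.16 in #4. What set that library apart was not tested.

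Kdelr3 (chromosome 15, 79516411 to 79527739) stood at 7.4, 6.06 and 7.78 in XX and at 2.07, 1.7, 1.84 and 1.56 in the mutants. The 4 mutant libraries were nearly alike, and the groups were far apart. The ratio of the means was 0.253, and the log2 difference was -1.53 with a standard error of 0.12 (limma adjusted p 0.0123). KDEL receptors bind the retrieval signal of resident proteins of the endoplasmic reticulum in the Golgi. The family's other members, from the list of endoplasmic reticulum chaperones, had values on both sides of 0: Kdelr1 had a log2 difference of -0.31 and Kdelr2, which lies in a stretch of chromosome 5 described further on, one of 0.56, with limma adjusted p 0.276 and 0.252. In EpiLC the Kdelr3 difference was -0.41, and in a joint fit the difference between the states was 1.09 on the log2 scale (limma adjusted p 0.0292).

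Cr1l (chromosome 1, 195097382 to 195131586) stood at 18.6, 17.3 and 15.7 in XX and at 8.19, 7.62, 7.84 and 7.07 in the mutants, a ratio of 0.446. Smyd2 (chromosome 1, 189880492 to 189922363) stood at 22.2, 20.2 and 21 in XX and at 10.1, 11.1, 11.5 and 10.4 in the mutants, a ratio of 0.509. For both genes the mutant libraries sat close together, and the highest was well below the lowest XX library. Cr1l had a log2 difference of -1.07 (limma adjusted p 0.0243) and Smyd2 one of -0.91 (limma adjusted p 0.0346). In EpiLC both passed as well, Cr1l at -0.81 (limma adjusted p 0.0189) and Smyd2 at -0.75 (limma adjusted p 0.0307). The fifth, n-R5s112 (chromosome 8), stood at 1.65, 1.76 and 1.47 in XX and was listed at 0 in all 4 mutants (limma adjusted p 0.0243). Its p carries the limit given above, since 3 XX libraries and 0 mutants reached a TPM of 1. It belongs to a family of near-identical 5S copies between which reads cannot be placed with certainty, and no fold is given against values listed at 0.

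**Figure D2:**
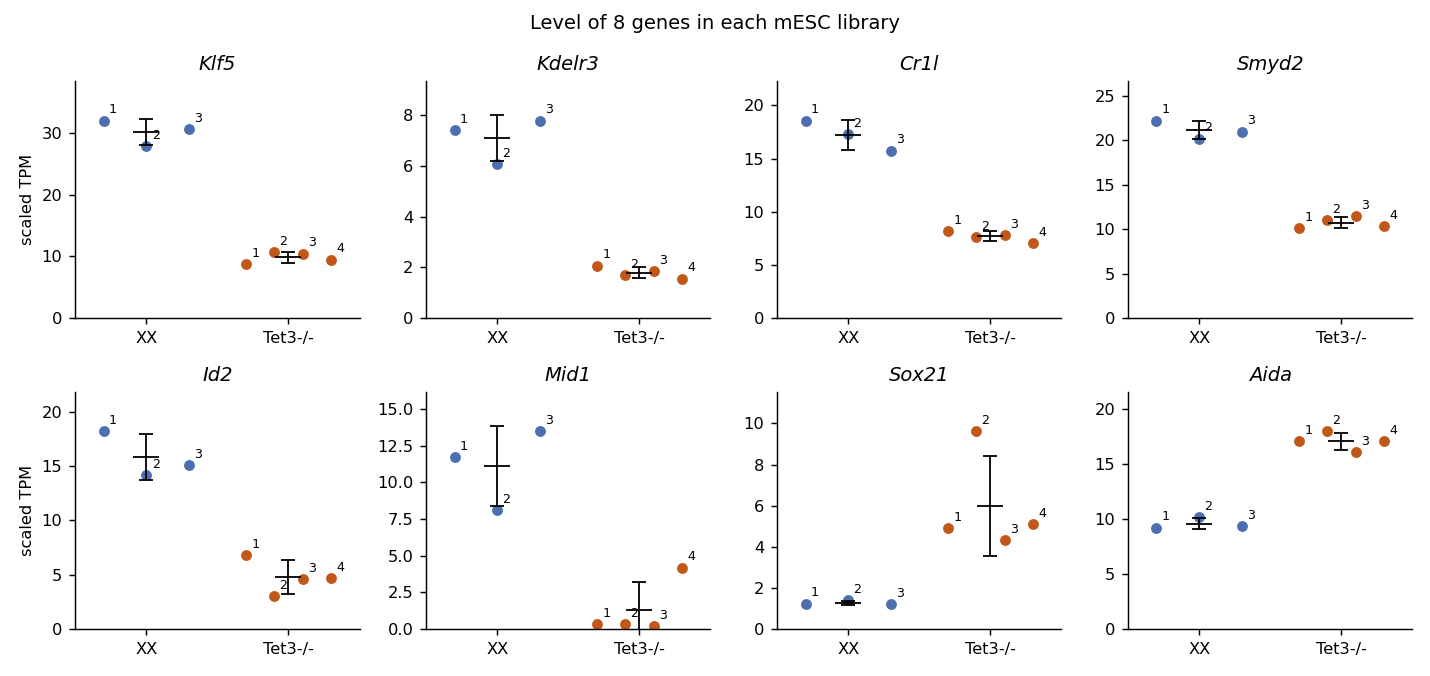
Scaled TPM (y axis, from 0) of 8 genes in each XX (blue) and Tet3-/- (orange) mESC library, numbered as in the labels; black marks are the mean and SD. Klf5, Kdelr3, Cr1l and Smyd2 passed the test, and Id2, Mid1, Sox21 and Aida, also without overlap between the groups, did not; #4 stands apart in Mid1 and #2 in Sox21.

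Because TET enzymes act on methylated CpG, the 250 bases before the start of 3 called genes are shown with each CpG in capitals, from RefSeq (GRCm38.p6). They are Kdelr3 at chr15:79516158-79516407, plus strand, Smyd2 at chr1:189922292-189922541, minus strand, and Cr1l at chr1:195131571-195131820, minus strand.
Kdelr3: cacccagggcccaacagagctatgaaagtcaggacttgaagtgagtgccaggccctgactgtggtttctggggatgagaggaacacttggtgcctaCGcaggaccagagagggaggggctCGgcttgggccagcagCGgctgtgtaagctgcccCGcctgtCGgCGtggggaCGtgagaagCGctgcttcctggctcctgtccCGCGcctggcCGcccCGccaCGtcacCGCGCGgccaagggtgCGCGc
Smyd2: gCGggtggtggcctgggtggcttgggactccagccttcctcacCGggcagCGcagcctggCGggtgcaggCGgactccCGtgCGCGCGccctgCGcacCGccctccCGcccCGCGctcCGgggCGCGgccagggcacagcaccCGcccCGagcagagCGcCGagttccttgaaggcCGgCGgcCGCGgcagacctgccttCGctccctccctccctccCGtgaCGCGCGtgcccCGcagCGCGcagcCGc
Cr1l: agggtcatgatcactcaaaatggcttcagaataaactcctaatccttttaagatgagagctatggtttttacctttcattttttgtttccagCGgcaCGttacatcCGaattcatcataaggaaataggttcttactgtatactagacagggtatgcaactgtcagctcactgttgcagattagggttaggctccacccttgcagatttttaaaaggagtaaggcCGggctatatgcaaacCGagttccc
The stretches of Kdelr3 and Smyd2 hold 18 and 34 CpG and that of Cr1l holds 5, against a median of 6 over 32851 promoters of the same length. At least as many CpG as in Kdelr3, Smyd2 and Cr1l are held by 21.7%, 3.53% and 55.6% of these promoters. Beside all promoters, Cr1l was thus near the median and the other starts above it. Beside the median of 16 in the genes tested, Kdelr3 was near it, Smyd2 above and Cr1l below. Methylation was not measured in these libraries. A promoter was found for 8962 of the genes tested (72.9%), with a median of 14 CpG in the higher and in the lower genes with an unadjusted p under 0.05 and of 16 in all genes tested.

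The 5 genes with the lowest p on the higher side were D1Pas1, Aida, Pms2, Ints1 and Ephb4, each at a limma adjusted p of 0.0564. Aida stood at 9.23, 10.2 and 9.36 in XX and at 17.1, 18.0, 16.1 and 17.1 in the mutants, a ratio of 1.78. Pms2, a mismatch repair gene, stood at 8.11, 8.09 and 7.75 and at 12.4, 13.8, 13.6 and 13.5, a ratio of 1.67. Ints1, a subunit of the Integrator complex, had a ratio of 1.78 and Ephb4, an ephrin receptor, one of 2.61. No XX library reached a mutant library in any of these. D1Pas1, a helicase gene with close relatives in the genome, was at 0.423 to 0.466 in XX and 1.89 to 3.08 in the mutants. It entered the test through the 4 mutant libraries alone, so its p is no support for a difference. Aida lies on chromosome 1, as D1Pas1 does, and Pms2, Ints1 and Ephb4 lie on chromosome 5.

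Chromosomes 1 and 5 had the highest shares of genes with an unadjusted p under 0.05, 20.4% and 20.7% of their genes tested, against 6.73% to 14.1% on the others and 12.7% over all genes. Running medians over 9 neighbouring protein-coding genes with a mean scaled TPM of at least 5 placed these differences. They gave 4 intervals in which the mutant and XX medians did not overlap and their means were at least 0.4 (log2) apart in at least 5 successive windows. The rule for these intervals was made after the values were seen, so the mESC values describe them and test nothing. The EpiLC libraries give the same genes in other libraries, but their mutants carry the same numbers, so they are not an independent repeat.

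The first interval covered 22.1 Mb of chromosome 1 (165212286 to 187351704, GRCm38), from Tiprl to Gpatch2. It held 79 protein-coding genes of that level, and 78 had a higher mean in the mutants. The median log2 difference from the XX mean was -0.02, -0.01 and 0.01 in XX 1 to 3 and 0.51, 0.66, 0.51 and 0.43 in mutants #1 to #4. The 4 mutants were thus alike, and XX 2 did not stand apart from the other XX libraries. The median ratio of mutant to XX was 1.49, with quartiles of 1.33 and 1.59. Of the 79 genes, 58 had an unadjusted p under 0.05, none passed the adjustment, and 52 had no overlap between the groups. Over all genes tested 12.7% had such a p and 6.74% were higher without overlap, but the interval rule itself chose neighbours that differ. Aida, D1Pas1, the secretory cargo gene Mia3 (ratio 1.67) and Dedd, a death effector domain gene (ratio 1.65), lie here. In EpiLC the median log2 difference of these genes was 0.55 and the median ratio 1.51, with 72 of 78 tested genes higher and 32 (41.0%) called higher, where 1.49% of all genes were called higher.

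Beyond a single gene of that level, Kctd3, the difference changed sign. From Cenpf at 189640606 to the last gene of that level on chromosome 1, Cr1l, all 9 genes were lower in the mutants, each with an unadjusted p under 0.05, and their median ratio was 0.497. Over all genes tested 6.11% were lower at that p. Both Smyd2 and Cr1l, which passed the test, lie in this end of the chromosome. Cenpf, a kinetochore gene, stood at 14.7, 19.5 and 18.9 in XX and at 8.33, 8.15, 9.27 and 9.37 in the mutants. Nek2, a centrosomal kinase, stood at 9.6, 15.7 and 9.36 and at 4.34, 5.43, 6.51 and 4.62. Dtl, a substrate receptor in DNA replication control, had a ratio of 0.479, Angel2 0.482 and Ppp2r5a, a phosphatase subunit, 0.562. No library of either genotype crossed into the other's range in these 5 genes, where 6.49% of all genes were lower without overlap. In EpiLC all 9 were lower as well, with a median log2 difference of -0.81, and 5 were called, where 2.15% of all genes were called lower. The 40 genes before the higher interval had a median log2 difference of 0.01, 21 of them above 0 and 19 below.

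On chromosome 5 an interval ran from 137528127 to 148552789 and held 67 such genes with a median ratio of 1.5. The median log2 difference was -0.06, 0.16 and -0.12 in XX 1 to 3 and 0.45, 0.66, 0.63 and 0.42 in the mutants. Every mutant was above every XX library, and XX 2, #2 and #3 were each the higher libraries of their group. In EpiLC the median log2 difference was 0.59 and the median ratio 1.59, with 62 of 67 genes higher. Of these genes 26 (38.8%) were called higher, where 1.49% of all genes were. The 8 genes of that level from the interval to the end of the chromosome, Hmgb1 to Rfc3, were all higher as well, at a median ratio of 1.59, and the 40 genes before the interval had a median log2 difference of -0.01. Pms2, Ints1 and Kdelr2 lie inside the interval, and Ephb4 starts at 137350109, just before it.

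The remaining interval, on chromosome 4 (119277981 to 120831572), held 7 genes at a median ratio of 1.41, but it was barely separated: its median log2 difference was 0.43 in XX 2 and 0.46 in #1, the lowest mutant. In EpiLC the median ratio there was 1.75, and 3 of 7 genes were called higher, where 1.49% of all genes were. Slc2a1, the glucose transporter GLUT1, starts at 119108711, just before this interval. It stood at 19.5, 30.0 and 18.2 in XX and at 31.0, 52.2, 46.0 and 33.3 in the mutants (ratio 1.8, limma adjusted p 0.227).

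**Figure D3:**
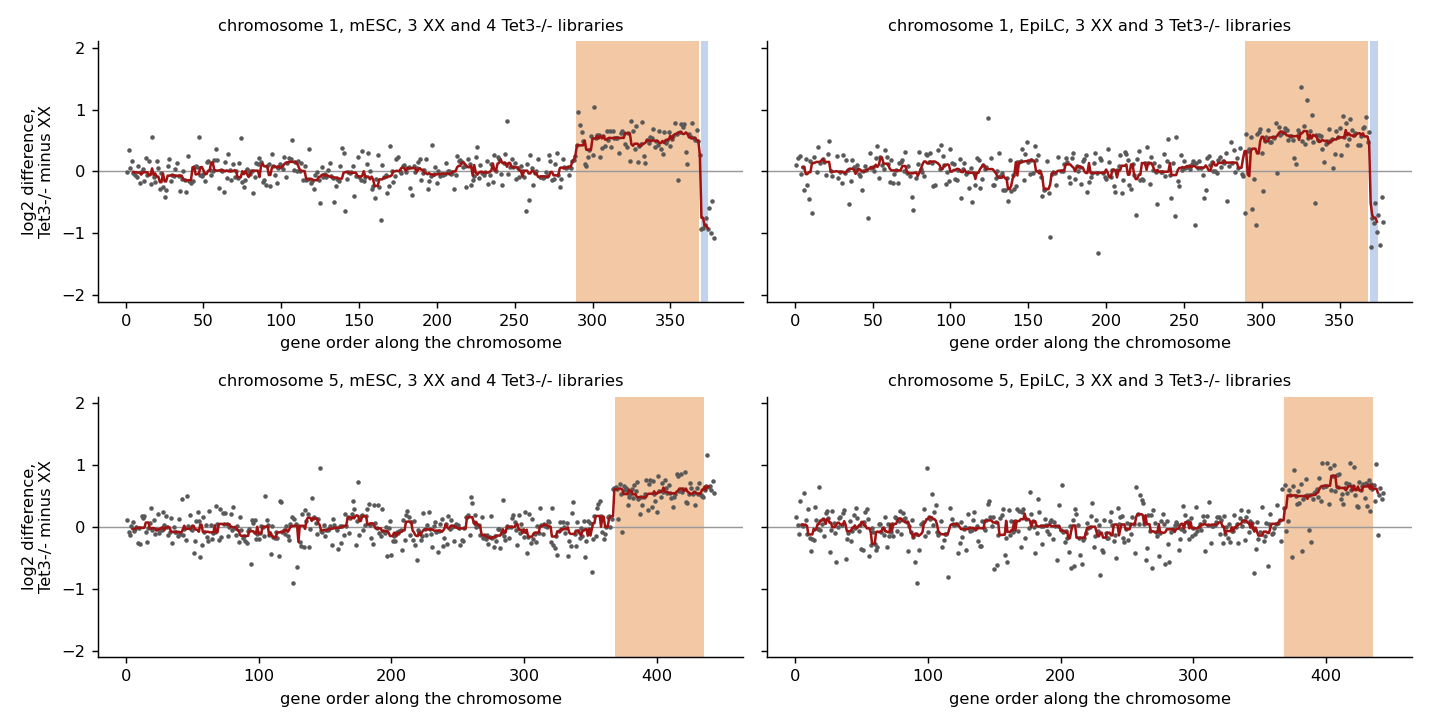
Log2 difference of Tet3-/- from XX (y axis, points beyond 2 drawn at the edge) for protein-coding genes with a mean scaled TPM of at least 5, in order along chromosomes 1 (top) and 5 (bottom), in mESC (left) and EpiLC (right). The red line is the running median of 9 genes, and shading marks the higher (orange) and lower (blue) intervals; inside the shading the line lies away from 0 in both states.

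The 4 intervals held 2.06% of the genes tested, 38 of the 118 genes (32.2%) with an unadjusted p under 0.001, and 10.5% of those under 0.05. They were drawn where these same mESC values differ, so high shares of low mESC p follow from that choice and test nothing. Among genes called in EpiLC and tested in mESC they held 21.8%. Outside them, 6929 protein-coding genes of that level had a median log2 difference of -0.03. Not every positional shift was shared by the mutants. Over the genes tested on chromosomes 16 and 19, the median difference from the XX mean was 0.14 and 0.15 in #2. In the other libraries it was -0.02 to 0.0 and -0.05 to 0.04. The XY mESC libraries of the series, from another line, had interval medians between -0.16 and -0.05 on the long chromosome 1 interval, between -0.1 and 0.0 on the lower one and between 0.03 and 0.13 on chromosome 5, against XX. On the chromosome 4 interval they ran more widely, from -0.36 to 0.18. DNA content was not measured here, and the cause of the shared shifts was not tested.

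Outside the intervals the genes with low p were compared with EpiLC as a whole. Of 510 genes that were higher in mESC at an unadjusted p under 0.05 and tested in EpiLC, 376 (73.7%) had the same sign there and 24 (4.71%) were called in that direction. Of 650 lower genes, 506 (77.8%) had the same sign and 57 (8.77%) were called. Over all 10911 genes tested in both states the shares were 63.7% and 2.78%. Of the 5 called genes, 4 were tested in EpiLC, all 4 had the same sign and 2, Cr1l and Smyd2, were called, both on the end of chromosome 1. That count of 2 was 0 without any 1 of the XX EpiLC libraries or without mutant #4, 1 without #1 and 3 without #3.

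**Figure D4:**
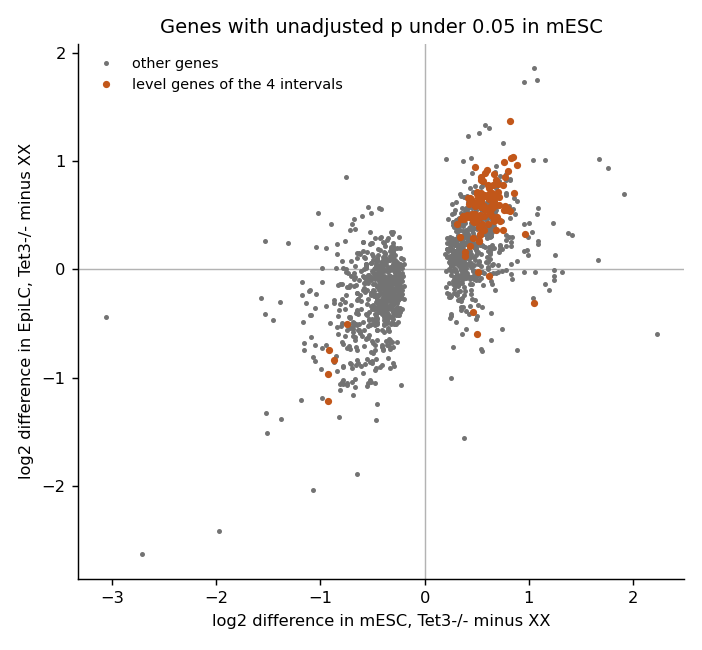
Log2 difference of Tet3-/- from XX in EpiLC (y axis) against that in mESC (x axis) for genes with an unadjusted p under 0.05 in mESC, which leaves the middle of the x axis empty. Orange points are the protein-coding genes of the 4 intervals, most of which lie in the upper right. No library is shared between the axes, but the EpiLC mutants carry numbers of the mESC mutants.

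Klf5 was the only 1 of 14 naive pluripotency genes to pass. The list's median log2 difference was -0.15, against -0.005 over all genes tested. On TPM as deposited that median was 0.11, against 0.217 over all genes, so its sign depends on the scaling. The same holds for 6 of the 28 list medians in all. Nr0b1 stood at 17.2, 10.6 and 16.9 in XX and at 11.5, 10.4, 9.99 and 8.04 in the mutants, so XX 2 lay among the mutants (log2 difference -0.52, limma adjusted p 0.319). Prdm14 had a log2 difference of 0.21 without overlap (limma adjusted p 0.392), and Nr5a2 had 0.28, also without overlap (limma adjusted p 0.267). The core factor Sox2 stood at 80.6, 79.5 and 77.7 in XX and at 96.9, 102, 89.5 and 90.4 in the mutants (log2 difference 0.25, limma adjusted p 0.388). For Sox2 and Nr5a2 the sign turned in EpiLC, where the differences were -1.01 and -0.72, and the difference between the states passed (limma adjusted p 0.00316 and 0.0351), as it did for 21 of 12296 genes (0.171%). In EpiLC Sox2 stood at 14.5 to 15.5 in XX and 6.35 to 7.96 in the mutants. Nr5a2 was low there, at 1.11 to 1.41 and 0.191 to 0.63, where the added 1 weighs on the difference. Apart from Klf5, the naive factors named here thus had small differences in both directions, none past the threshold.

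No member of the LIF and STAT3 list (9 tested) passed, and its median log2 difference was 0.06. Pim1 and Pim3, kinases induced by LIF signalling, had log2 differences of -0.55 and -0.58 without overlap. The receptor Lifr and the transcription factor Stat3 had 0.32 and 0.33, also without overlap (limma adjusted p 0.145 to 0.319 over the 4 genes). In these 4 genes, named for a low unadjusted p, the receptor and its effector lay on the other side of XX from the kinases, none past the threshold. The other members overlapped: Il6st, Jak1, Lif and Junb had 0.31, 0.06, 0.02 and 0.14, and Socs3 had -0.38. Over all genes tested 6.74% were higher and 6.49% lower without overlap.

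In the list of BMP signalling and Id genes (6 tested, median 0.16), Id2, an inhibitor of basic helix-loop-helix factors, stood at 18.2, 14.2 and 15.0 in XX and at 6.81, 3.02, 4.61 and 4.68 in the mutants. The groups were well apart at a ratio of 0.302, but the log2 difference of -1.57 did not pass (limma adjusted p 0.059). Id4 had a log2 difference of 0.7 in the other direction, at 0.765 to 0.915 in XX and 1.34 to 3.04 in the mutants (limma adjusted p 0.2). Only 1 XX library but all 4 mutants reached a TPM of 1 for Id4, so it was tested because of its mutant levels, and its values are a description. In EpiLC the Id2 difference was -0.27.

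Among 7 tested Wnt targets (median 0.31, none passed), Sp5 stood at 0.106, 0.413 and 0.114 in XX and at 1.38, 2.16, 1.38 and 1.48 in the mutants (limma adjusted p 0.0679). Axin2, a feedback inhibitor of the pathway, stood at 2.06, 5.66 and 2.1 in XX and at 4.74, 7.48, 7.24 and 5.36 in the mutants (limma adjusted p 0.308). Sp5 reached a TPM of 1 in the 4 mutants and in 0 XX libraries, so it was tested because of the group where it is high, and its p is no support. Axin2 was high in XX 2 and overlapped. All these cells received a GSK3 inhibitor, which itself activates this pathway.

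Of 12 neural genes only 3 were above the test's limit, and each had an unadjusted p under 0.05 on the higher side. For each of them at most 2 XX libraries reached a TPM of 1, so all 3 were tested because of their mutant levels. A filter on low levels favours genes that are high in 1 group, so this count and their p are a description. Sox21, a SOX transcription factor of neural progenitors, stood at 1.23, 1.39 and 1.22 in XX and at 4.92, 9.62, 4.31 and 5.1 in the mutants (log2 difference 1.56, limma adjusted p 0.0657). Nes, an intermediate filament gene, was at 0.692 to 0.933 and 1.1 to 1.52, and Tubb3, a neuronal tubulin, at 0.327 to 1.43 and 0.902 to 3.61. Sox21 and Nes did not overlap, and Tubb3 did. The summed scaled TPM of the list was 3.35 to 4.91 in XX and 8.6 to 14 in the mutants, and Sox21 took much of it. A larger share of cells with these RNAs and more of the RNA per cell cannot be told apart in bulk libraries. Mesendoderm sums (3.9 to 4.99 in XX and 3.81 to 5.41 in the mutants) overlapped between the groups.

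Imprinted genes are set by DNA methylation inherited from 1 parent. Of 31 listed, 19 were tested and none passed, 6 had an unadjusted p under 0.05 on the higher side and 3 on the lower (6.55% and 6.11% over all genes), and the median was 0.11. Rian, Mirg and Meg3, maternally expressed non-coding RNAs of the Dlk1-Dio3 cluster on chromosome 12, were all higher in value. Rian stood at 16.4, 14.9 and 16.5 in XX and at 29.7, 56.9, 40.3 and 32.5 in the mutants, a ratio of 2.5 (limma adjusted p 0.0995). Mirg stood at 3.65, 4.98 and 4.4 and at 10.0, 20.7, 14.5 and 8.83, a ratio of 3.11 (limma adjusted p 0.104). Meg3 stood at 23.2, 8.84 and 26.5 and at 40.7, 41.4, 28.5 and 40.5 (ratio 1.94, limma adjusted p 0.291). The lowest mutant library was above the highest XX library for each of the 3 RNAs. They lie in 1 locus and are not independent of each other. In EpiLC the log2 differences of Rian, Mirg and Meg3 were 0.43, 0.34 and -0.26, and none was called. Gnas stood at 30.3, 23.9 and 27.4 in XX and at 17.6, 9.84, 14.1 and 15.9 in the mutants, and Grb10 had a ratio of 0.684 (limma adjusted p 0.122 and 0.153). The sign of Gnas turned in EpiLC, at a log2 difference of 0.42, and that of Grb10 did not, at -0.83, neither called. The paternally expressed genes had differences in both directions: Mest, Ndn and Peg3 had log2 differences of 0.83, 0.46 and 0.32, and Sgce had one of -1.05 (limma adjusted p 0.206 to 0.303). Snrpn, Plagl1 and Impact, also paternally expressed, had 0.02, -0.07 and -0.17.

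Of 14 tested genes of the methylation machinery, 1 was higher and 1 lower at an unadjusted p under 0.05, none passed, and the median was -0.05 (0.18 on TPM as deposited). These counts lie near the shares over all genes, 6.55% and 6.11%, and are no result about the list. The lower one, Gadd45b, a stress-induced gene linked to demethylation, stood at 31.8, 7.85 and 28.4 in XX and at 11.0, 4.92, 5.77 and 8.5 in the mutants. XX 2 lay among the mutants (limma adjusted p 0.316). Of 13 tested germline genes that methylation silences in other cells, 1 was higher and 1 lower at that p, again near those shares, and the median was 0.13. Eed, a core subunit of Polycomb repressive complex 2, stood at 55.5, 48.7 and 50.2 in XX and at 26.3, 32.6, 32.6 and 31.6 in the mutants (ratio 0.598, limma adjusted p 0.0792). Its partner Mtf2 had a ratio of 0.77 (limma adjusted p 0.224), and no other of 15 Polycomb genes had a p under 0.05.

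The X-linked list had a median of 0.06 over 20 tested genes and no call. Mid1, a microtubule-associated ubiquitin ligase gene at the end of the X chromosome, stood at 11.7, 8.13 and 13.5 in XX and at 0.353, 0.343, 0.165 and 4.19 in the mutants. In 3 mutants it was close to 0, and #4 was in between. It met the limit on low levels through the 3 XX libraries. The ratio was 0.114 and the log2 difference -2.71, which did not pass with that spread (limma adjusted p 0.102). In EpiLC it was -2.64 and passed (limma adjusted p 0.0265). Dusp9, an X-linked phosphatase of the ERK pathway, stood at 22.3, 21.6 and 21.6 and at 9.99, 17.0, 12.1 and 8.81 (limma adjusted p 0.145). The median log2 level of 519 genes of the X minus the median of 11761 genes of the autosomes was 0.02, -0.38 and 0.02 in XX 1 to 3 and 0.15, -0.05, -0.13 and 0.04 in the mutants. XX 2 was thus low on the X, and the groups overlapped. Xist, the RNA of X inactivation, was at most 0.334 scaled TPM in XX and 1.06 in the mutants.

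Among 17 tested genes of glycolysis and hypoxia (median 0.12), Vegfa, the endothelial growth factor, stood at 30.4, 21.7 and 29.2 in XX and at 13.8, 12.7, 14.9 and 11.2 in the mutants (ratio 0.485, limma adjusted p 0.076). Ndrg1, a stress and hypoxia gene, stood at 20.3, 5.67 and 20.0 and at 6.78, 5.24, 4.65 and 5.24. Vegfa separated the genotypes, and for Ndrg1 XX 2 was again at the mutant level. The actin-binding Cnn2 had a ratio of 0.316, the keratin Krt8 0.563 and Nupr1, a target of the stress factor ATF4, 0.469, each without overlap (limma adjusted p 0.0995 to 0.21). They are single members of the contractile, epithelial junction and ATF4 target lists, with 5, 10 and 12 genes tested. In these lists 2, 1 and 1 genes were lower at an unadjusted p under 0.05 (6.11% over all genes) and none passed, so they stand for no list. None of the 19 cholesterol synthesis genes and none of the 13 mitochondrially encoded genes had an unadjusted p under 0.05, and their medians were -0.04 (0.2 on TPM as deposited) and 0.17.

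**Figure D5:**
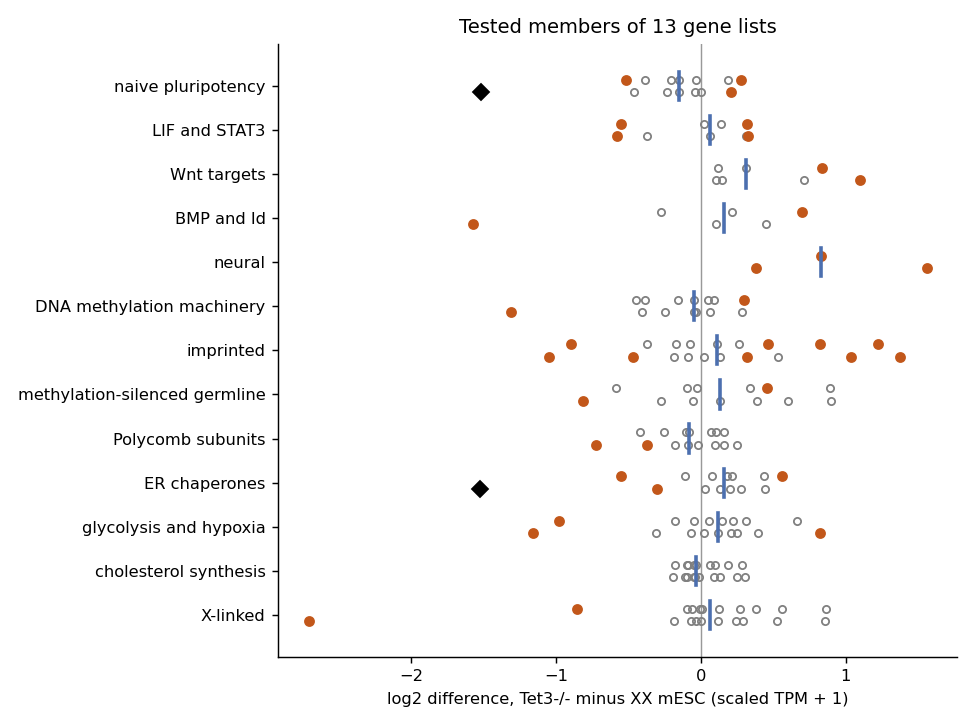
Log2 difference of Tet3-/- from XX mESC (x axis) for the tested members of 13 gene lists (y axis). Black diamonds passed the test (Klf5 and Kdelr3), orange points had an unadjusted p under 0.05 only, open circles neither, and blue bars are the list medians.

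Without XX 2, 34 of 55 of the named genes, recomputed under each alternative, passed, 13 higher and 21 lower, where 6.3% of all genes did. The named genes were picked from these same libraries, so that count is no support for them. Those that passed included Id2 (log2 difference -1.64), Vegfa (-1.13), Eed (-0.76), Rian (1.18) and Mirg (1.46), at limma adjusted p values from 0.0169 to 0.0452. Sox21 (1.59) and Mid1 (-2.9) passed too, but each needed the genotype where it is high to meet the limit on low levels. Their p is no support. Leaving out XX 2 was chosen after the data were seen, and of the 1557 genes with an unadjusted p under 0.05 in all 7 libraries 506 passed in the 6.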

How the data were processed

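RNA sequencing had been done on 19 libraries of 6 groups, of which the 3 XX and 4 Tet3-/- mESC libraries were compared. The authors deposited TPM values for 140948 transcripts, 1 column per library, each summing to 1000000. FastQC 0.11.7, Trimmomatic 0.35, Salmon 1.1.0 and the build GRCm38 are named, without roles, per the submitters' processing notes. Values were added up per gene by GENCODE M21 (GRCm38). The 1096 unmatched transcripts, at most 0.215% of TPM in a library, were left out. Genes that reached a TPM of 1 in 3 or more of the 7 libraries were kept, scaled by the median of ratios and tested on log2(scaled TPM + 1) with limma 3.58.1 in R 4.3.3 (lmFit, eBayes with a trend). P-values were adjusted over all 12296 genes by the Benjamini-Hochberg method, and genes under 0.05 were called. The fit was tested on simulated data. The 6 EpiLC libraries were fitted likewise (12114 genes), and a joint fit of 13 libraries tested whether the mutant effect differed between the states. An exact 2-sided permutation test of 3 against 4 libraries cannot give a p below 0.0571, so single values have none.

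The genes named were Tet3, Xist, all called genes, the 5 lowest p-values in a direction with under 5 calls, members of 29 gene lists and the extreme loadings of the first principal component. Genes named beside the intervals were chosen after their values were seen, as were the intervals. The members, lists and rules were chosen with earlier results of these data known. Alternatives were other scalings, a pseudocount of 0.1, other filters, a fit of all libraries, eBayes without a trend, array weights, a replicate block, each library left out, a fold limit and, added later, fits within each side of the first component.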

Additional observations from a re-analysis of the deposited data

Results flagged for a closer look

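In 6 of the 55 genes checked 1 of the 4 mutant libraries stood apart from the other 3, by a gap of most of the group's range (Dixon's test at the 95% level). About 1 in 20 groups is picked out in this way by chance. Library #2 was high for Sox21 (scaled TPM 9.62), Sp5 (2.16) and Grb10 (5.56). Library #1 was low for Eed (26.3), #3 was low for Meg3 (28.5), and #4 was high for Mid1 (4.19). In none of these genes did the library that stood apart reach the XX range.

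For 3 named genes the mutant effect differed between EpiLC and mESC in the joint limma fit. The difference (EpiLC minus mESC, log2) was 1.09 for Kdelr3, -1.01 for Nr5a2 and -1.27 for Sox2, with limma adjusted p of 0.0292, 0.0351 and 0.00316. Nr5a2 was low in EpiLC, as given above.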

How the results depend on the processing

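Both the number of genes called and the split between higher and lower depended on the processing. Of 5 calls (0 higher, 5 lower), limma left 0 on TPM as deposited and 0 on TPM rescaled over nuclear protein-coding genes. It gave 3 with no filter (3 lower), 16 with a TPM of at least 5 (8 higher, 8 lower), 471 in the fit of all 19 libraries (273 higher, 198 lower) and 2994 with array weights (1421 higher, 1573 lower). A pseudocount of 0.1 gave 5, 1 of them higher, and eBayes without a trend 7, 2 of them higher. Leaving out 1 library gave from 0 to 775 calls, with 0 to 325 higher and 0 to 450 lower. Within 1 side of the first component there were 1387 (678 higher, 709 lower) and within the other 0. The replicate numbers did not pair the libraries (correlations of same-numbered deviations 0.529, 0.539 and -0.501), and the replicate block gave 0 calls in mESC and 0 of the 5 genes in EpiLC. In EpiLC the count of 2 was 0 without scaling and 0 to 3 with 1 library left out. The cause was not tested, except that fewer libraries or genes entered some fits. None of the 55 genes recomputed under these settings changed sign in any of them. Most were named for a low p in these same libraries, so this was largely set by the choice and is no support. Of the genes with an unadjusted p under 0.05, 99.2% had the same sign on both sides of the first component, against 59.3% of genes tested. Both sides are parts of the libraries that gave that p, so a high share follows from the choice and is no support. Depth is unknown.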
